A study of Mus musculus with 26 samples.

Results

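Nodal signalling and the genes it helps to start in the primitive streak were followed through 10 genes: Nodal, its co-receptor Tdgf1, its inhibitors Lefty1, Lefty2 and Cer1, the ligands Wnt3 and Fgf8, and the transcription factors T, Mixl1 and Gsc. They were picked by name among the 55291 genes of the count table, with earlier results of these data known, and all 10 were found in it. Of these, 9 had enough reads to enter the test along with 20953 genes in all. Cer1 did not, since it had 2 counts in a single library of 26.

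Nodal is a secreted ligand of the TGF-beta family. It acts through activin receptors that need a co-receptor of the EGF-CFC family such as Tdgf1 (also called Cripto), and the signal is carried by Smad2 and Smad3, which bind DNA together with partners such as FOXH1. Lefty1 and Lefty2 are themselves switched on by the pathway and block it, so that they act as feedback inhibitors, while Cer1 is a secreted antagonist that marks visceral and definitive endoderm. In the embryo Nodal and Wnt3 act together at the onset of the primitive streak, where T (Brachyury), Mixl1, Gsc and Fgf8 are then expressed. Mouse embryonic stem cells (ESCs) transcribe Nodal, Tdgf1 and the Lefty genes while undifferentiated, and express the streak genes at low level.

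RNA-seq was made from R1 mouse ESCs, a wild-type line, in 13 groups of 2 libraries each, and all cells were grown with LIF on gelatin. The controls were untreated cells (ESC) and cells given DMSO. The study used agents and transgenes to push cells towards a 2-cell-like state: retinoic acid (RA, 0.53 uM for 48 h), pladienolide B (PlaB, an inhibitor of the spliceosome, 4 nM for 4 days), and doxycycline-induced overexpression (OE, 4 ug/mL for 24 h) of Zscan4, of Dux, or of Dux R70A, a mutant of DUX that does not form condensates. Dux knockdown (Dux KD, by shRNA) was combined with RA, PlaB or Zscan4 OE, and knockout of the Tdpoz super-enhancer (SE KO, by CRISPR-Cas9) with RA, PlaB or Dux OE. Libraries of uninduced transgenic lines and of knockdown or knockout cells without induction were not analysed here, so a knockdown or knockout is compared with wild-type cells under the same induction. Nothing in the labels says whether the 2 libraries of a group came from separate cultures or whether a line was 1 clone. The p-values rest on the spread between libraries, which may be technical. That spread was estimated over all 13 groups together, so an SE is not the spread of the 2 groups compared. What the groups share, the R1 line and LIF, also holds for the controls.

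Libraries held between 14401452 and 39402840 counts (median 18276934), and 3 counts, taken here as the floor, were worth 0.0796 to 0.226 CPM (counts scaled to the size of the library). Summed levels of 8 ESC markers lay between 1675 CPM (a library of SE KO RA) and 6650.1 CPM (a library of Dux KD Zscan4 OE). For 3 groups the labels or the targeted genes were not clear. Replicate 1 of SE KO RA was titled SE KO but carried a wild-type genotype label, and across genes its log2 CPM correlated at r = 0.9914 with the other SE KO RA library and at 0.9597 and 0.9612 with the RA libraries. The Dux KD Zscan4 OE libraries were labelled as untreated, with no doxycycline time, and had 12 and 15 counts of Zscan4c, against 1545 and 1897 in Zscan4 OE and 92 and 92 in ESC. They are therefore called libraries labelled Dux KD Zscan4 OE below. Counts of Duxf3, the gene of the Dux locus in the table, were 49 and 59 under RA and fell to 16 and 6 with the knockdown, and under PlaB they were 191 and 181 without it but 1 and 0 with it. Zscan4 OE had 27 and 17, and the libraries labelled Dux KD Zscan4 OE had 1 and 0. The Dux OE libraries held 55 and 48 counts, those of the R70A mutant none, and whether reads of the transgenes are counted there is not given in the sources used here.

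The upstream sequences of Nodal, the ligand, and Tdgf1, the most abundant of the 10 genes, are shown because they start the pathway at the cell surface. The windows are the 250 bases before the start of each gene in RefSeq (GRCm38.p6, the build of the count table), at chr10:61417722-61417971 on the plus strand and chr9:110946159-110946408 on the minus strand. Capitals mark matches to the FOXH1 motif.
Nodal: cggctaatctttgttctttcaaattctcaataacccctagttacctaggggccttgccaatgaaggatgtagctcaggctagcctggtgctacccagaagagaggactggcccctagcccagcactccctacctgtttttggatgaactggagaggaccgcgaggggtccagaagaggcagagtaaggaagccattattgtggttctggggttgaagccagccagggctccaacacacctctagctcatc
Tdgf1: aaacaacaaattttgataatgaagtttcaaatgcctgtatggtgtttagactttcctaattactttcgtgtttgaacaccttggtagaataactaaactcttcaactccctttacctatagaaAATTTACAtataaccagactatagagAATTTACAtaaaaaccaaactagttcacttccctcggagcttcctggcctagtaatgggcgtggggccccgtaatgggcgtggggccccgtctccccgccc
The Tdgf1 window held 2 matches to the FOXH1 motif AATNNACA, at positions -127 and -101 from the start, both on the strand of the gene, and the Nodal window held none. Both strands were searched, and 10.9% of 32851 windows of the same length held at least 1 match. Of the 10 genes 6 had an entry (Nodal, Tdgf1, Cer1, Wnt3, Gsc and T). None of these windows held the core of the DUX motif TGATTNAAT (0.658% of all windows) or the retinoic acid receptor half-site AGGTCA (14%). Nor did any hold the TCF/LEF motif CTTTGAT (3.21%) or the T-box half-site TCACACC (3.33%). Lefty1, Lefty2, Mixl1 and Fgf8 had no entry.

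Nodal, Tdgf1, Lefty1 and Lefty2 were read deeply in every library, and the other 6 genes had at most 92 counts in any library. By the annotation of the table (mm10), Lefty1 (chr1:180935022-180938400) and Lefty2 (chr1:180893108-180899103) lie side by side on the plus strand of chromosome 1, Nodal lies at chr10:61417972-61425338 (plus strand) and Tdgf1 at chr9:110939603-110946158 (minus strand). Compared per kilobase of exon, group means of Tdgf1 ran from 148 CPM per kb in SE KO RA to 735 in DMSO, those of Nodal from 18.6 in Dux R70A OE to 101 in SE KO PlaB, those of Lefty2 from 4.11 in SE KO PlaB to 43.4 in DMSO, and those of Lefty1 from 3.09 in the libraries labelled Dux KD Zscan4 OE to 67.3 in RA. The level of Lefty1 thus spanned the widest range of these 4, 21.8-fold between its lowest and highest group, against 10.6-fold for Lefty2, 5.44-fold for Nodal and 4.96-fold for Tdgf1. Mean levels of T, Mixl1, Gsc, Wnt3 and Fgf8 did not pass 1.93 CPM per kb in any group.

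In order of level, most neighbouring groups were separated for the 4 deeply read genes and few were for the others. With the 13 groups ranked, the 2 libraries of a group overlapped those of the next group in 3 of 12 steps for Nodal, 3 for Lefty1, 5 for Lefty2 and 4 for Tdgf1, but in 10 of 12 for each of T, Mixl1, Gsc and Wnt3 and 9 for Fgf8. Nodal was lowest in Dux R70A OE and DMSO, which overlapped, and rose in order through PlaB, SE KO RA, Dux KD PlaB, Dux OE, Zscan4 OE, ESC, SE KO Dux OE, the libraries labelled Dux KD Zscan4 OE, RA, Dux KD RA and SE KO PlaB. Lefty1 ran from the libraries labelled Dux KD Zscan4 OE, Dux OE, SE KO PlaB and ESC, each overlapping the next, through Dux KD PlaB, Dux R70A OE, DMSO, SE KO Dux OE, Dux KD RA, SE KO RA, PlaB and Zscan4 OE to RA. Lefty2 ran from SE KO PlaB and Dux OE to Dux KD PlaB, Zscan4 OE and DMSO at the top, and Tdgf1 from SE KO RA and Dux KD RA to Zscan4 OE, Dux KD PlaB and DMSO.

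**Figure D1:**
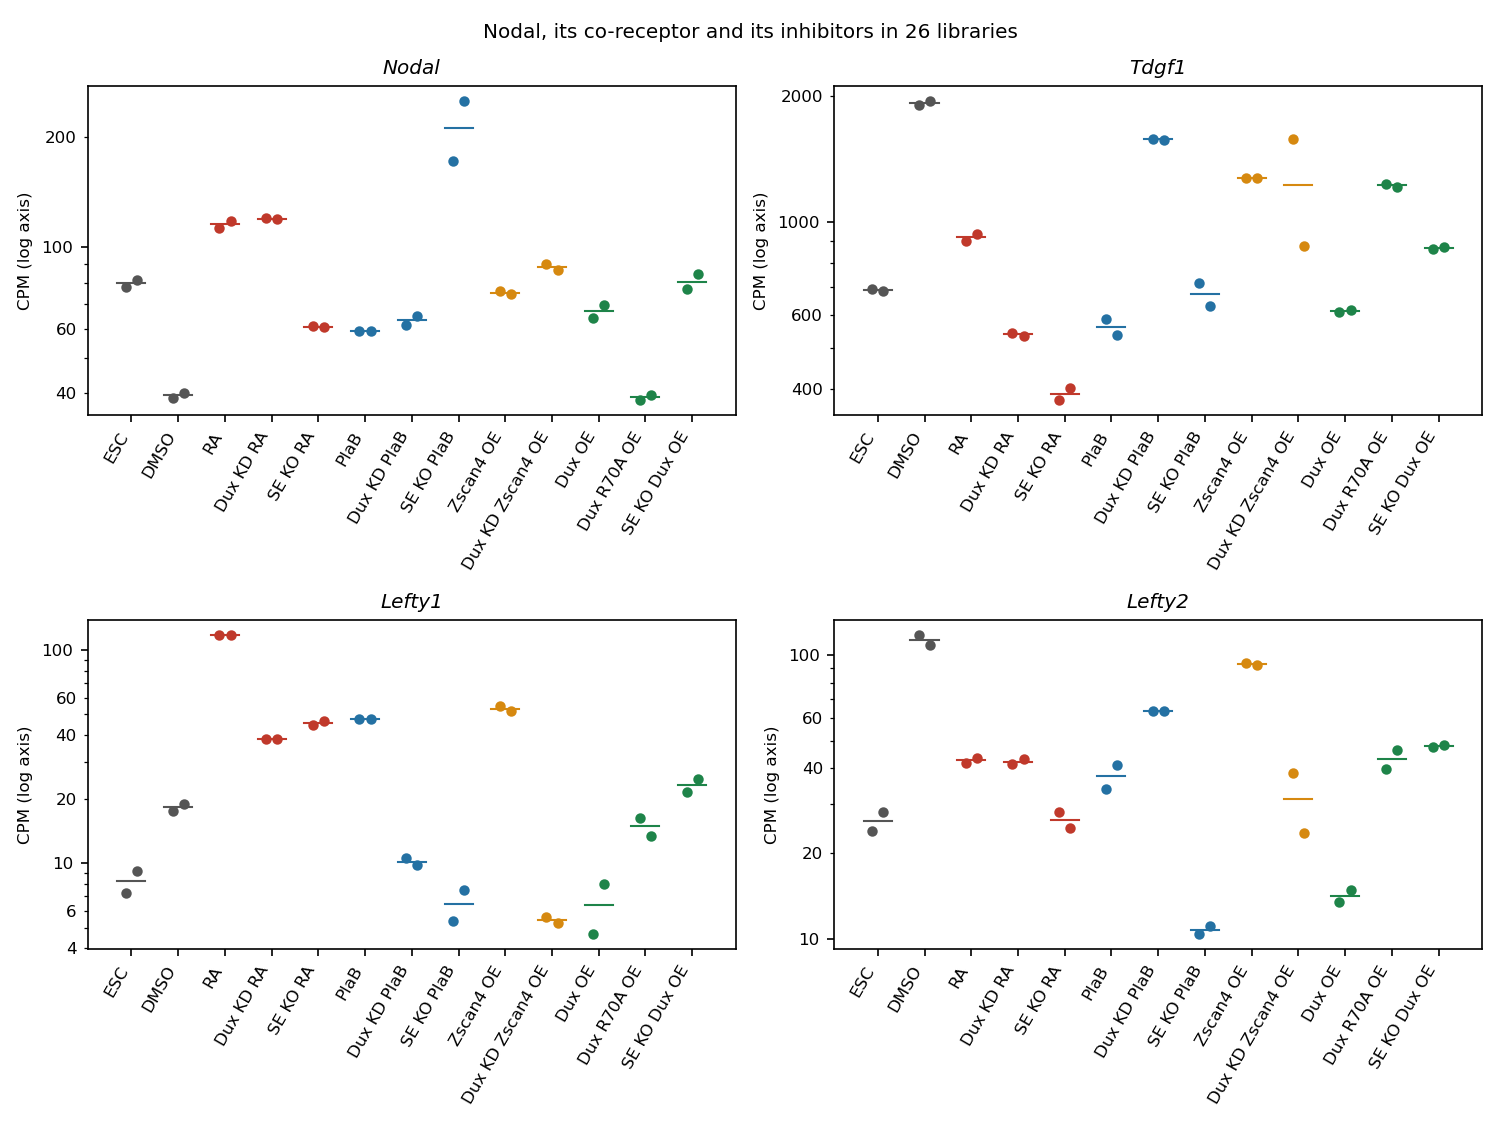
CPM of Nodal, Tdgf1, Lefty1 and Lefty2 (log axes) in the 13 groups, with a dot per library and a bar at the mean of 2 libraries, coloured by induction. Lefty1 spans the widest range and peaks in RA at 118 CPM, Nodal peaks in SE KO PlaB, and the libraries labelled Dux KD Zscan4 OE lie apart from each other for Tdgf1 and Lefty2.

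The controls themselves differed in these genes, which bears on every comparison that uses them. In ESC, Nodal was read at 77.9 and 81.5 CPM, and in DMSO at 38.7 and 40.1. Tdgf1 was at 691 and 685 CPM in ESC and at 1908 and 1949 in DMSO. The inhibitors were higher in DMSO as well, Lefty2 at 118 and 109 CPM against 24.0 and 28.1, and Lefty1 at 17.7 and 19.0 against 7.23 and 9.26. The ligand was thus at the lower level in DMSO, where its co-receptor and both inhibitors were at the higher one, and the libraries did not overlap for any of these 4 genes. By edgeR's quasi-likelihood test, with adjustment (Benjamini-Hochberg) over the 20953 genes, Lefty2 rose by 2.12 on the log2 scale (SE 0.14, adjusted p = 3.8e-12), Tdgf1 by 1.49 (SE 0.14, adjusted p = 2.3e-09) and Lefty1 by 1.16 (SE 0.16, adjusted p = 1.9e-06), and Nodal fell by 1.02 (SE 0.11, adjusted p = 3.6e-08). A gene is called here at an adjusted p under 0.05 and a change of at least 1 on the log2 scale, by which 4 of the 9 tested genes were called, against 16.2% of all genes. The Nodal call sat at the fold limit and was lost without DMSO replicate 1 (-0.99) or ESC replicate 2 (-0.98), and that of Lefty1 without ESC replicate 1 (0.98). How long DMSO was given is not stated, and the 5 comparisons of induced wild-type cells with a control below each rest on 1 of these 2 groups.

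RA raised the ligand and Lefty1 and lowered Lefty2 and the co-receptor against DMSO. Lefty1 stood at 118 CPM in both RA libraries, 6.45-fold above DMSO (log2 2.69, SE 0.14, adjusted p = 7.2e-15). Nodal stood at 113 and 118 CPM, 2.93-fold higher (log2 1.55, SE 0.11, adjusted p = 3.6e-12). Both genes were above every control library. Lefty2 was at 41.6 and 43.5 CPM, which was 2.66-fold lower (log2 -1.41, SE 0.13, adjusted p = 5.4e-10), and Tdgf1 at 902 and 939 CPM, 2.09-fold lower (log2 -1.07, SE 0.14, adjusted p = 2.1e-07). Wnt3, which had 3 counts in each DMSO library, had 18 and 30 in RA, a ratio of 6.50 with an exact 95% interval of 2.78 to 18.6 that covers counting error only (adjusted p = 0.00113). In all 5 of 9 genes were called, 3 higher and 2 lower, against 31.0% of all genes.

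Which control was used set the direction for Lefty2 and Tdgf1. Against untreated ESC, Lefty2 in RA was higher by 0.71 (adjusted p = 8.3e-05) and Tdgf1 by 0.42 (adjusted p = 0.0105), and Nodal by 0.53 (adjusted p = 1.1e-04), each under the fold limit, so that Lefty1 and Wnt3 alone were called. With library size as the only scaling the fall of Tdgf1 against DMSO was 0.87 and missed the fold limit. Markers of primitive and visceral endoderm moved in the same comparison: 8 of 10 tested were called higher in RA and 1 lower (Amn), their summed level was 106 and 109 CPM against 13.3 and 11.2 in DMSO, and their part in these results was not tested. In bulk RNA a smaller share of cells of a type cannot be told apart from less RNA per cell, here and in every comparison below.

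PlaB raised Lefty1 and Wnt3 and lowered Lefty2, Tdgf1 and Fgf8 against DMSO. Lefty1 was at 47.6 and 47.8 CPM, 2.60-fold above DMSO (log2 1.38, SE 0.14, adjusted p = 1.1e-09). Tdgf1 was at 587 and 537 CPM, 3.43-fold below it (log2 -1.78, SE 0.14, adjusted p = 7.0e-12), and Lefty2 at 33.8 and 41.1, 3.03-fold below (log2 -1.60, SE 0.13, adjusted p = 1.7e-11). Wnt3 reached its highest level of all groups, with 92 and 79 counts (4.46 and 3.58 CPM) against 3 and 3 in DMSO, a ratio of 23.9 with a counting interval of 10.8 to 66.2 (adjusted p = 7.4e-08). Fgf8, with 6 and 3 counts in DMSO, had 0 and 0 in PlaB. Set against the floor of 3 counts per library it was at least 1.79-fold lower (adjusted p = 0.00192). Nodal was at 59.2 and 59.0 CPM, above DMSO by 0.59 (adjusted p = 3.7e-05) and under the fold limit. The 5 genes called, 2 higher and 3 lower of 9, compare with 58.9% of all genes, so their share is near the background. RA and PlaB were set against the same 2 DMSO libraries. Against ESC, Lefty2 was higher in PlaB by 0.53 (adjusted p = 0.0015) and Tdgf1 differed by -0.29 (adjusted p = 0.0584). Of the primitive and visceral endoderm markers 7 of 10 were called higher in PlaB than in DMSO and none lower, with a summed level of 41.3 and 44.1 CPM against 13.3 and 11.2, and their part was not tested.

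Zscan4 OE was accompanied by higher Lefty1 and Lefty2 against ESC. Lefty1 stood at 54.6 and 51.8 CPM, 6.46-fold above ESC (log2 2.69, SE 0.16, adjusted p = 7.9e-13). Lefty2 stood at 94.0 and 92.8, 3.59-fold above (log2 1.84, SE 0.14, adjusted p = 8.9e-11). Tdgf1 was at 1275 and 1273 CPM, higher by 0.89 (adjusted p = 1.0e-05) and under the fold limit, while Nodal at 75.9 and 74.6 CPM differed from ESC by -0.08 (SE 0.11, adjusted p = 0.589). The 2 calls among 9 genes compare with 11.6% of all genes. Against DMSO the Lefty2 difference was -0.28 (adjusted p = 0.0907), so that its direction again turned with the control.

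Dux OE left all 9 genes without a call. Lefty2 was lowest but 1 of all groups, at 13.5 and 14.8 CPM, and was lower than in ESC by 0.88 (SE 0.16, adjusted p = 9.8e-05), short of the fold limit. Lefty1 was at 4.67 and 8.04 CPM against 7.23 and 9.26 in ESC, and these libraries overlapped. Nodal (64.2 and 69.5 CPM) and Tdgf1 (611 and 616 CPM) differed from ESC by -0.25 (adjusted p = 0.0915) and -0.16 (adjusted p = 0.425). In edgeR 0 of 9 genes were called, against 9.51% of all genes, 2 (Nodal and Lefty2) had an unadjusted p under 0.05, and DESeq2 called 0. Set against DMSO instead, 4 were called lower (Lefty1, Lefty2, T and Tdgf1), beside 3811 of all 20953 genes called in either direction.

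Dux R70A OE differed from Dux OE in both inhibitors, although the mutant and wild-type lines were induced alike. Lefty2 stood at 39.8 and 46.2 CPM in Dux R70A OE, 3.03-fold above Dux OE (log2 1.60, SE 0.15, adjusted p = 3.1e-09). Lefty1 stood at 16.4 and 13.4 CPM, 2.34-fold above (log2 1.23, SE 0.18, adjusted p = 3.4e-06). Tdgf1, at 1236 and 1215 CPM, was 2.00-fold above Dux OE (adjusted p = 2.1e-06) and just under the limit, and Nodal, at 38.3 and 39.6 CPM, was lower by 0.78 (adjusted p = 4.1e-06). Fgf8 had its highest level of all groups in Dux R70A OE, with 16 and 12 counts against 1 and 2 in Dux OE, a ratio of 7.70 with a counting interval of 2.38 to 39.6 (adjusted p = 0.00531). T had 6 and 8 counts against 1 and 0, a ratio of 11.6 with an interval of 1.76 to 489 (adjusted p = 0.0364). The 4 calls, all higher, compare with 13.6% of all genes. The count rested on Dux OE replicate 1, without which Lefty2 was the 1 gene called: Lefty1 then differed by 0.90, and T and Fgf8 had adjusted p of 0.0551 and 0.0592. The T call was also lost without Dux OE replicate 2 (adjusted p = 0.224), without Dux R70A OE replicate 2 (adjusted p = 0.136) and with DESeq2 (adjusted p = 0.0788).

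Against ESC, Dux R70A OE had 1 call among 9 genes, Nodal, which was 2.05-fold lower (log2 -1.03, SE 0.11, adjusted p = 2.7e-08), beside 16.9% of all genes. Lefty1 was higher than in ESC by 0.86 (adjusted p = 1.2e-04), Tdgf1 by 0.83 (adjusted p = 1.6e-05) and Lefty2 by 0.72 (adjusted p = 1.3e-04), each under the fold limit. With library size as the only scaling the fall of Nodal was 0.80, and Fgf8, Lefty1 and Tdgf1 were called in its place. Against DMSO, Nodal differed by -0.02 (adjusted p = 0.962). The levels of Nodal in Dux R70A OE and DMSO overlapped, and both were the lowest of the series.

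**Figure D2:**
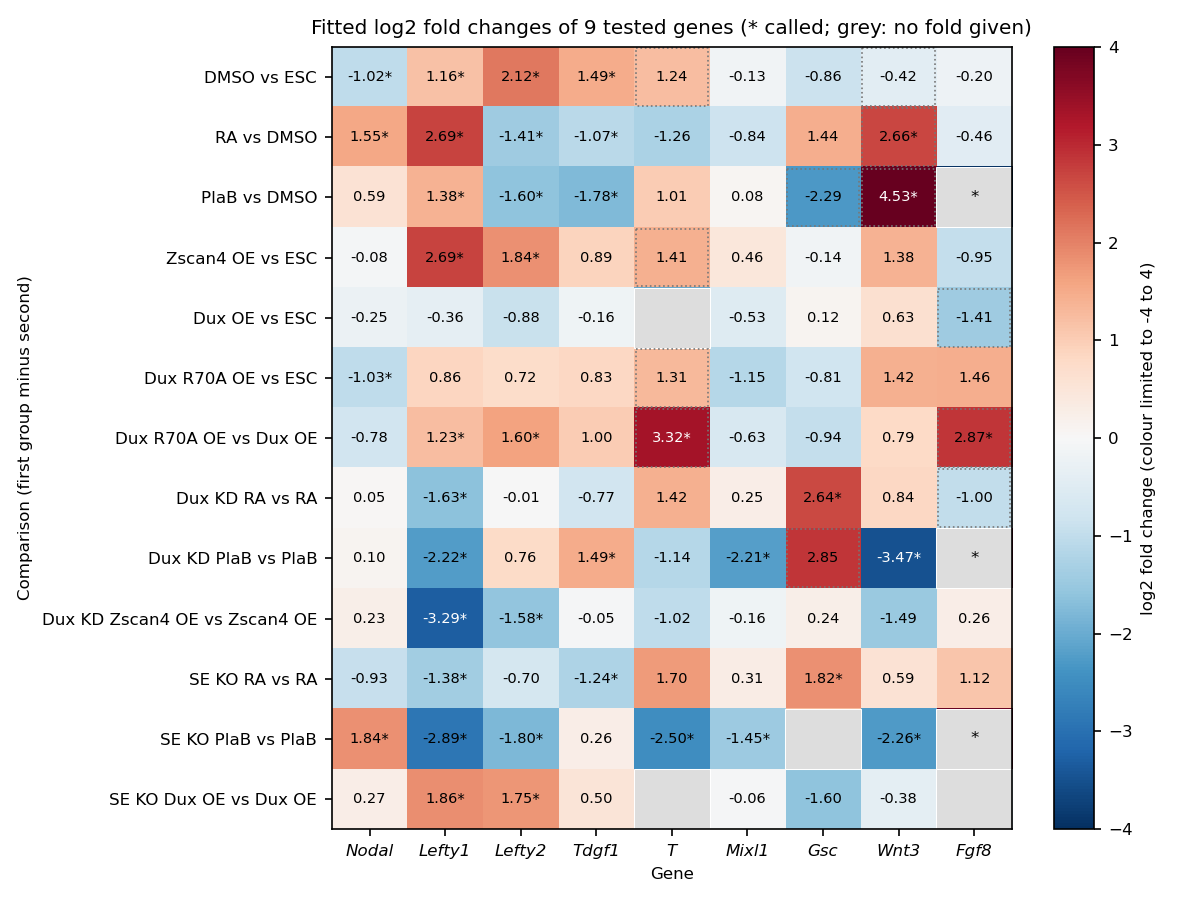
Fitted log2 fold changes (edgeR) of the 9 tested genes in 13 comparisons, first group minus second, with an asterisk where the gene was called and a dotted outline where a group had at most 3 counts in each library. Grey fields have a group without any count or both groups at the floor, where no fold is given. Lefty1 was called in 11 of 13 comparisons, Lefty2 in 8 and Tdgf1 in 5.

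Dux KD under RA lowered Lefty1 and raised Gsc, with no call for Nodal. Nodal was read at 119.9 and 119.7 CPM in Dux KD RA against 113 and 118 in RA, a difference of 0.05 (SE 0.11, adjusted p = 0.733). Lefty1 fell from 118 CPM in both RA libraries to 38.5 and 38.2, which was 3.09-fold (log2 -1.63, SE 0.13, adjusted p = 5.8e-10). Lefty2 was at 41.4 and 43.0 CPM and overlapped RA. Gsc, a homeobox gene of the organiser, was higher, with 41 and 43 counts (2.35 and 2.53 CPM, its highest level of all groups) against 4 and 13 in RA, 6.23-fold (log2 2.64, SE 0.61, adjusted p = 0.00125). Tdgf1, at 543 and 535 CPM, was lower by 0.77 (adjusted p = 7.3e-05). The 2 calls compare with 10.9% of all genes.

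Dux KD under PlaB lowered Lefty1, Wnt3 and Mixl1 and raised Tdgf1 and Fgf8. Lefty1 was at 10.6 and 9.81 CPM, 4.67-fold below PlaB (log2 -2.22, SE 0.15, adjusted p = 2.8e-13). Tdgf1 was at 1583 and 1574 CPM, 2.81-fold above (log2 1.49, SE 0.14, adjusted p = 2.6e-10), and Lefty2 at 63.6 and 63.7, above by 0.76 (adjusted p = 1.1e-05) and under the limit. Nodal was at 61.4 and 65.1 CPM and differed by 0.10 (SE 0.11, adjusted p = 0.422). Wnt3 had 6 counts in each library, 11.1-fold below PlaB (log2 -3.47, SE 0.51, adjusted p = 1.0e-06). Mixl1 had 1 and 7 counts against 20 and 28 in PlaB, a ratio of 0.211 with a counting interval of 0.0863 to 0.450 (adjusted p = 0.00319), and this call was lost without Dux KD PlaB replicate 1 (adjusted p = 0.0787). Fgf8 had 5 and 6 counts where PlaB had none, at least 2.32-fold higher against the floor of 3 counts per library (adjusted p = 7.6e-04). The 5 calls, 2 higher and 3 lower, compare with 54.9% of all genes and are near the background. Cell-state markers moved in the same comparison, and their part was not tested. Of 8 ESC markers 4 were higher and none lower (sums of 5109 and 5111 CPM against 3169 and 3154 in PlaB), of 10 endoderm markers 3 were higher and 6 lower (41.4 and 44.6 against 41.3 and 44.1), and all 8 markers of 2-cell-like cells were lower (6.66 and 6.64 against 7317 and 7573). The DMSO libraries had Tdgf1 at 1908 and 1949 CPM and Lefty1 at 17.7 and 19.0. They had 3 and 3 counts of Wnt3, 21 and 17 of Mixl1 and 6 and 3 of Fgf8. Marker sums in DMSO were 5598 and 5787 CPM (ESC), 13.3 and 11.2 (endoderm) and 7.09 and 5.10 (2-cell-like). Whether PlaB acted as strongly in the Dux KD libraries was not tested.

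The libraries labelled Dux KD Zscan4 OE had the lowest Lefty1 of the series, at 5.58 and 5.27 CPM. Against Zscan4 OE this was 9.77-fold lower (log2 -3.29, SE 0.17, adjusted p = 4.0e-14). Lefty2 was at 38.4 and 23.7 CPM, 2.99-fold lower (log2 -1.58, SE 0.14, adjusted p = 1.3e-09). With a library left out this change of Lefty2 ran from -1.98 to -1.28. Nodal was at 90.0 and 86.6 CPM, higher by 0.23 (adjusted p = 0.108). The pair of libraries differed from each other in Tdgf1 (1585 and 876 CPM), and they lay on both sides of Zscan4 OE. The 2 calls compare with 11.1% of all genes. Since these libraries carried no doxycycline label and little Zscan4c, the knockdown cannot be told apart from a missing induction.

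SE KO under RA lowered Lefty1 and Tdgf1 and raised Gsc. Lefty1 was at 44.4 and 46.6 CPM, 2.60-fold below RA (log2 -1.38, SE 0.13, adjusted p = 2.6e-09). Tdgf1 was at 376 and 402 CPM, its lowest level of all groups and 2.37-fold below RA (log2 -1.24, SE 0.14, adjusted p = 4.8e-08). Nodal, at 60.9 and 60.5 CPM, was lower by 0.93 (SE 0.11, adjusted p = 7.8e-08) and Lefty2, at 27.9 and 24.5 CPM, by 0.70 (adjusted p = 1.2e-04), both under the limit. Gsc had 34 and 28 counts against 4 and 13, 3.52-fold higher (log2 1.82, SE 0.63, adjusted p = 0.0192). That call was lost without RA replicate 1 (adjusted p = 0.217) or without the library of doubtful label, SE KO RA replicate 1 (adjusted p = 0.104). The other 2 calls kept their side of both thresholds without it. The 3 calls compare with 17.6% of all genes. In the same comparison 4 of 8 ESC markers were lower and none higher (sums of 1716 and 1675 CPM against 3487 and 3558 in RA). Of 10 endoderm markers 4 were lower and 1 higher (62.9 and 67.2 against 106 and 109). Of 8 markers of 2-cell-like cells 7 were lower and none higher (63.4 and 69.7 against 591 and 485). The part of these markers was not tested. Dux KD RA and SE KO RA were set against the same RA libraries.

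SE KO under PlaB gave the most calls, 7 of 9 genes against 52.0% of all genes, with Nodal up and both inhibitors down. Nodal reached its highest level of the series, at 172 and 251 CPM, 3.58-fold above PlaB (log2 1.84, SE 0.11, adjusted p = 1.4e-14). With a library left out this change of Nodal ran from 1.54 to 2.09. Lefty1 was at 5.38 and 7.51 CPM, 7.42-fold below PlaB (log2 -2.89, SE 0.15, adjusted p = 1.7e-15). Lefty2 was at 10.4 and 11.1 CPM, its lowest level and 3.49-fold below PlaB (log2 -1.80, SE 0.15, adjusted p = 1.6e-11). Tdgf1, at 717 and 632 CPM, differed by 0.26 (adjusted p = 0.0883). The ligand was thus at its maximum in the group where Lefty2 was at its minimum. Among the lineage genes, Wnt3 had 14 and 23 counts against 92 and 79, 4.78-fold lower (log2 -2.26, SE 0.43, adjusted p = 4.1e-05), T had 2 and 4 against 15 and 19, 5.66-fold lower (log2 -2.50, SE 0.78, adjusted p = 0.0059), and Mixl1 had 6 and 12 against 20 and 28, 2.74-fold lower (log2 -1.45, SE 0.55, adjusted p = 0.0205). Fgf8, the seventh call, had 2 and 3 counts against 0 and 0, so both groups were at or under the floor and no fold is given. The T call was lost without SE KO PlaB replicate 1 (adjusted p = 0.0588), the Mixl1 call without that library (adjusted p = 0.174) or PlaB replicate 2 (adjusted p = 0.107), and the Fgf8 call without PlaB replicate 1 (adjusted p = 0.0792), PlaB replicate 2 (adjusted p = 0.0865) or SE KO PlaB replicate 2 (adjusted p = 0.0788), with DESeq2 (adjusted p = 0.0584) and without the filter on low counts (adjusted p = 0.0572). Primitive and visceral endoderm markers were at their highest in the same libraries, with a summed level of 148 and 157 CPM against 41.3 and 44.1 in PlaB. Of 10 tested 5 were called higher and 2 lower (Amn and Afp), a share not far from that of all genes. All 8 markers of 2-cell-like cells were lower (595 and 537 CPM against 7317 and 7573 in PlaB). Of 8 ESC markers 4 were higher and none lower (4619 and 5011 CPM against 3169 and 3154). The part of these 3 lists was not tested, nor whether PlaB acted as strongly in the SE KO libraries.

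Under Dux OE, SE KO raised both inhibitors, with no call among the other 7 genes. Lefty1 was at 21.6 and 24.9 CPM, 3.62-fold above Dux OE (log2 1.86, SE 0.17, adjusted p = 7.5e-09), and Lefty2 at 47.3 and 48.1, 3.37-fold above (log2 1.75, SE 0.15, adjusted p = 3.0e-09). Tdgf1 (861 and 871 CPM) was higher by 0.50 (adjusted p = 0.00874) and Nodal (76.8 and 84.4 CPM) by 0.27 (adjusted p = 0.0696), under the limit. T had no count in either library. The 2 calls compare with 6.30% of all genes. In the same comparison 4 of 5 tested fibroblast markers were called higher, among them Col1a1, Col1a2 and Col3a1, and the summed level of the 7 listed was 116 and 117 CPM against 47.2 and 44.5 in Dux OE. None of the 7 was at 0 in both SE KO Dux OE libraries. Of 8 markers of 2-cell-like cells 7 were lower and none higher (sums of 1704 and 1471 CPM against 3671 and 3575 in Dux OE). The part of both lists in the Lefty result was not tested.

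For several genes the effect of a perturbation differed between PlaB and RA. Tested directly, as the effect under PlaB minus the effect under RA, the Dux KD effect differed for 5 of 9 genes (Tdgf1, T, Mixl1, Wnt3 and Fgf8). That share is near the 52.2% of all genes. The SE KO effect differed for 7 of 9 (Nodal, Lefty1, Lefty2, Tdgf1, T, Mixl1 and Wnt3), beside 49.0% of all genes. Nodal was the clearest, since its SE KO effect was -0.93 under RA and 1.84 under PlaB, a difference of 2.77 (SE 0.15, adjusted p = 5.6e-15). The Dux KD effect on Tdgf1 was -0.77 under RA and 1.49 under PlaB, a difference of 2.26 (SE 0.20, adjusted p = 7.5e-11). The knockdown itself was not alike, with 16 and 6 counts of Duxf3 left in Dux KD RA and 1 and 0 in Dux KD PlaB. Of 8 markers of 2-cell-like cells 1 was higher and 1 lower in Dux KD RA (sums of 389 and 376 CPM against 591 and 485). In Dux KD PlaB all 8 were lower. The part of this in the Dux KD differences was not tested. Lefty1 fell in all 4 settings, and its Dux KD effect differed by -0.60 (SE 0.20, adjusted p = 0.0106), which is under the limit used here. The lowest level of Gsc was in PlaB, with 0 and 1 counts, and its Dux KD effects of 2.85 under PlaB and 2.64 under RA differed by 0.21 (adjusted p = 0.838). The effect under PlaB was not called (adjusted p = 0.0638) and rests on 2 and 5 counts in Dux KD PlaB. A like effect in both inductions is therefore not shown.

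Set against the ligand within a library, the inhibitors ranged widely between groups. The ratio of Lefty1 to Nodal, in counts per kilobase, was 1.24 and 1.20 in RA, where Lefty1 exceeded its ligand, and 0.0373 and 0.0356 in SE KO PlaB. It was 0.957 and 0.966 in PlaB and 0.856 and 0.827 in Zscan4 OE, but 0.206 and 0.179 in Dux KD PlaB and 0.0739 and 0.0725 in the libraries labelled Dux KD Zscan4 OE. Lefty2 to Nodal was highest in DMSO, at 2.44 and 2.18, and lowest in SE KO PlaB, at 0.0486 and 0.0353. The balance of the inhibitors changed too. Lefty1 exceeded Lefty2 in both libraries of RA (ratios of 4.23 and 4.03), SE KO RA (2.36 and 2.83), PlaB (2.09 and 1.73) and Dux KD RA (1.38 and 1.32), and was below it in both libraries of 8 other groups, among them Dux KD PlaB (0.248 and 0.229), DMSO (0.223 and 0.259) and the libraries labelled Dux KD Zscan4 OE (0.216 and 0.330). In SE KO PlaB the libraries lay on both sides of 1 (0.767 and 1.01). Within these libraries Lefty1 and Lefty2 did not change equally. Their transcripts share part of their sequence, 17.9% of the 50-base windows of Lefty1 and 5.85% of its 100-base windows, so that reads of the shared parts may be lost or assigned to either gene.

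**Figure D3:**
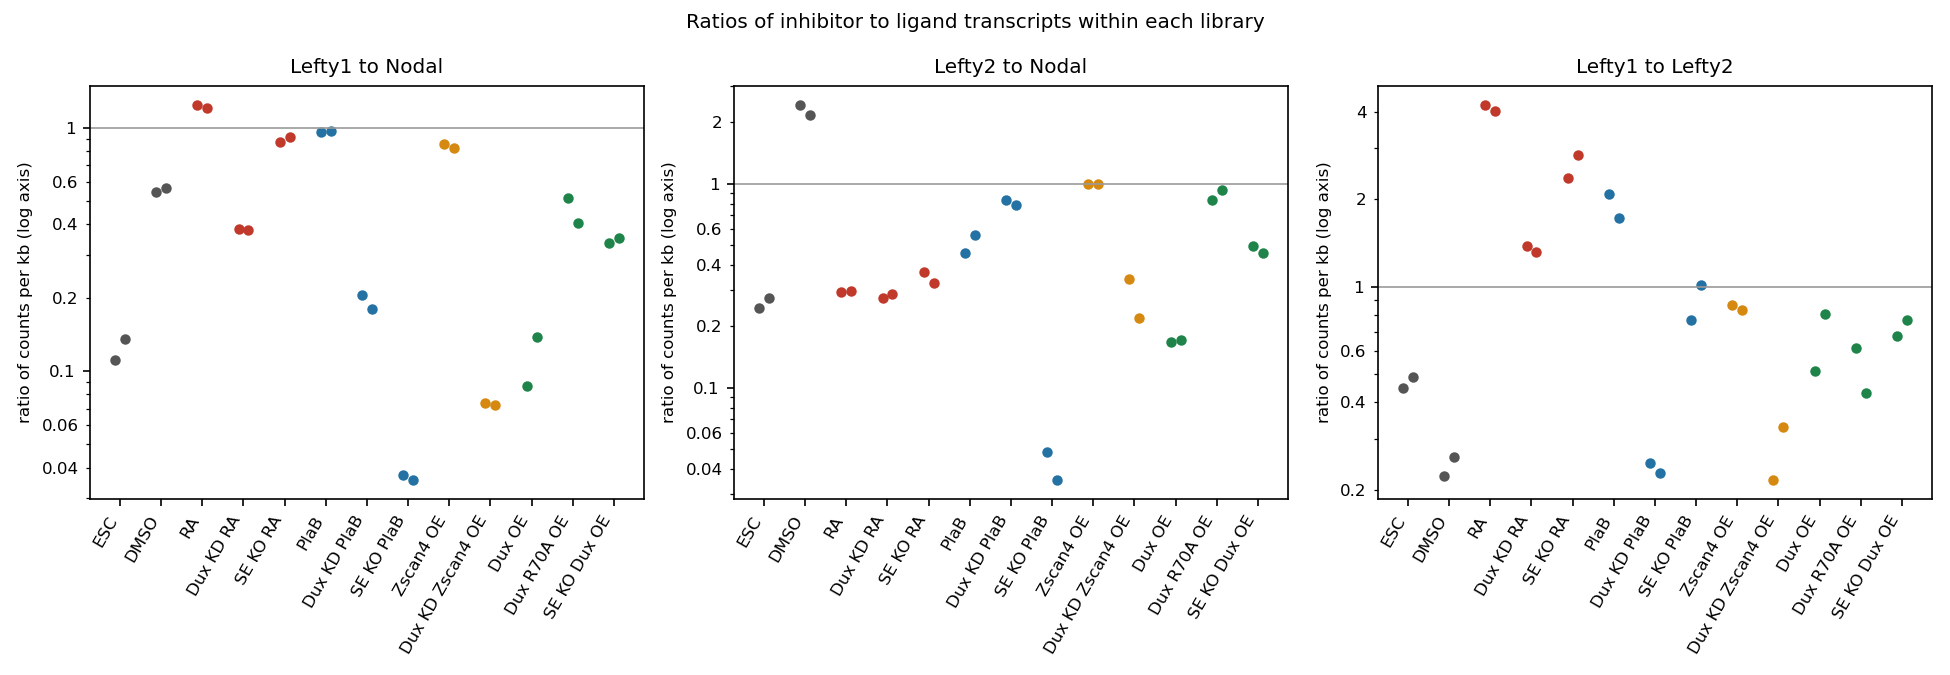
Ratios of Lefty1 to Nodal, Lefty2 to Nodal and Lefty1 to Lefty2 in counts per kilobase of exon (log axes), with a dot for each library of the 13 groups and a line at 1. Lefty1 exceeds Nodal in the RA libraries alone (1.24 and 1.20), and both inhibitors are lowest relative to Nodal in SE KO PlaB.

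The lineage genes had few counts in most groups, with Wnt3 in PlaB and Gsc in Dux KD RA and SE KO RA the clearest exceptions. T, the Brachyury gene, had 153 counts over all 26 libraries and more than 3 in 17 of them, and its highest level was 0.727 and 0.862 CPM in PlaB. Gsc had 222 counts in all, with the Dux KD RA and SE KO RA libraries the only ones above 1 CPM. Mixl1, a homeobox gene of the streak and endoderm, had 419 counts and was read in all 26 libraries, from 0.0590 CPM in a Dux KD PlaB library to 1.68 in Zscan4 OE. These values are those of scarce transcripts. Wnt3 had 497 counts in all and Fgf8 108, with more than 3 counts in 21 and 12 libraries. Cer1 was at 0 in 25 libraries and had 2 counts in a Dux KD RA library, so that in any library a level up to that of 3 counts cannot be seen.

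**Figure D4:**
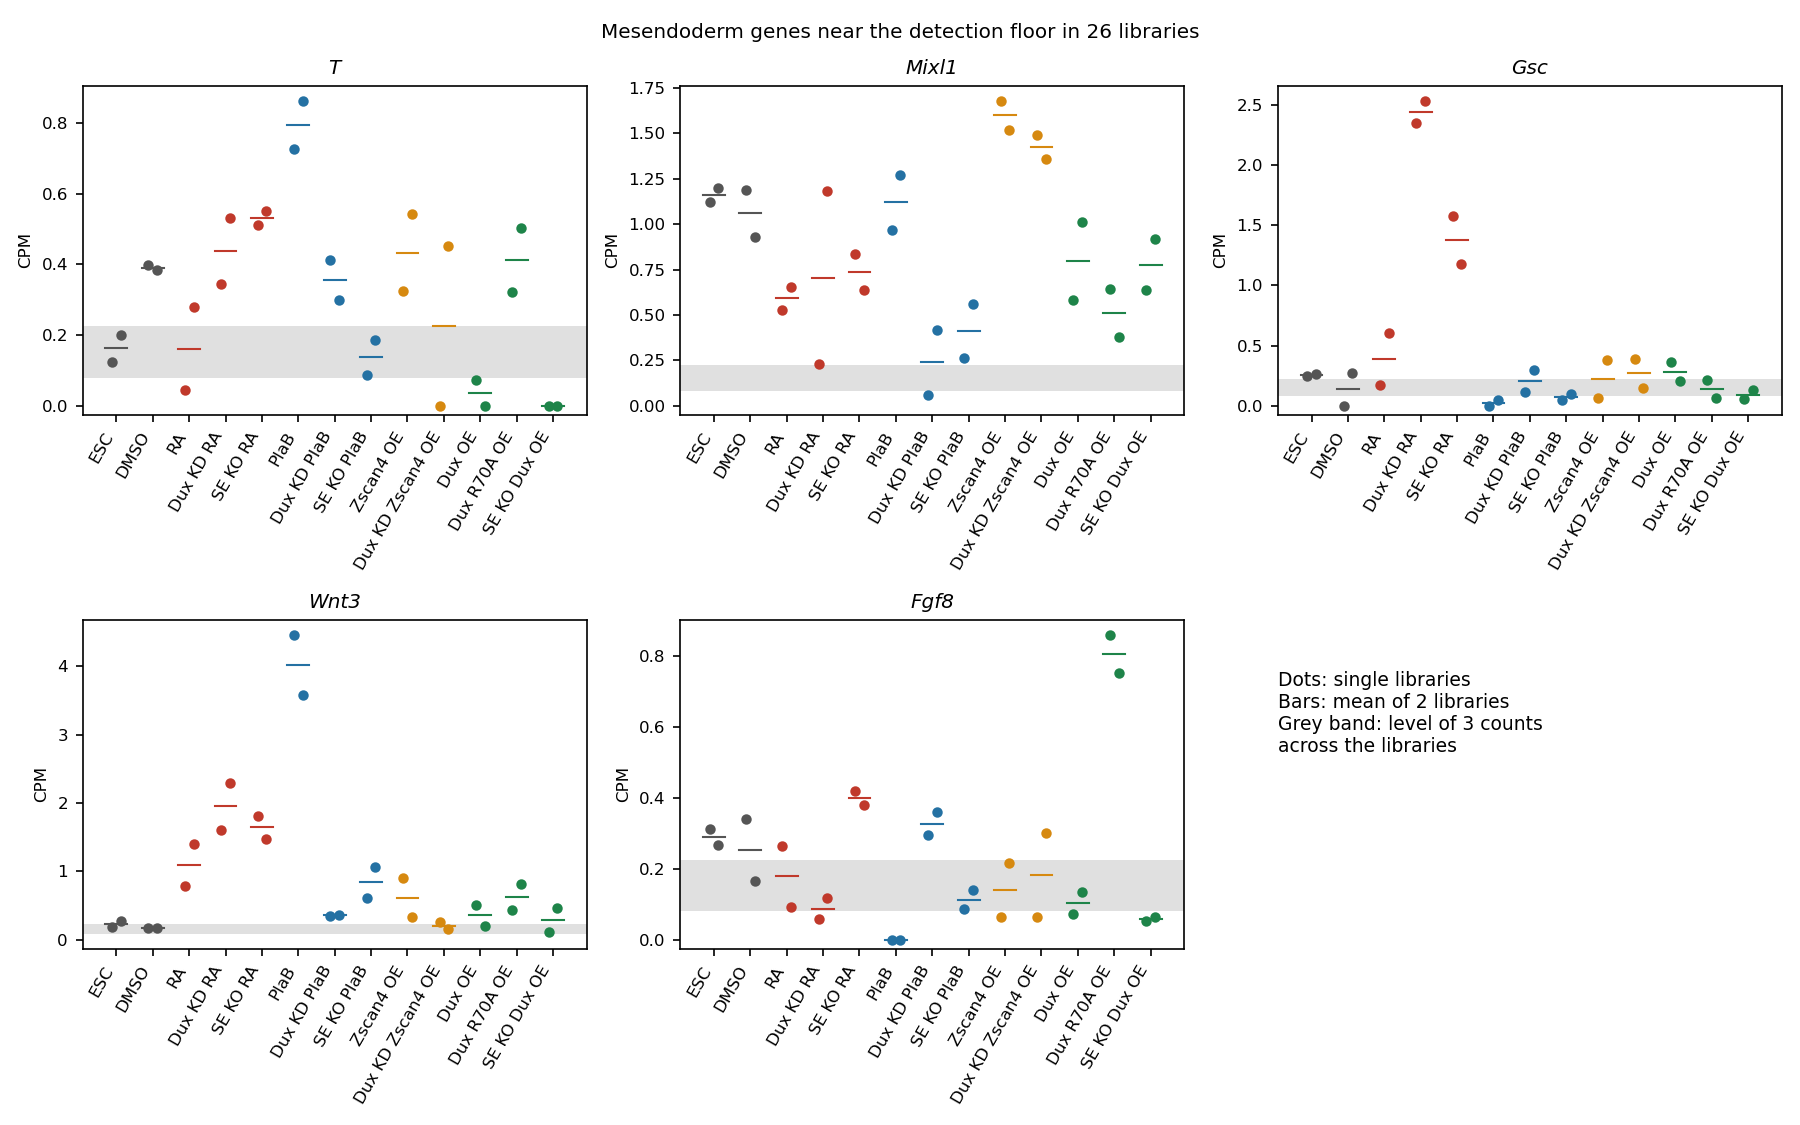
CPM of T, Mixl1, Gsc, Wnt3 and Fgf8 in the 13 groups, with a dot per library and a bar at the mean of 2 libraries, and a grey band for the level of 3 counts, 0.0796 to 0.226 CPM across libraries. Wnt3 and T are highest in PlaB, Gsc in Dux KD RA and Fgf8 in Dux R70A OE, while many other groups lie in or near the band.

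Many other genes of Nodal and TGF-beta signalling were called under PlaB, in a comparison where 58.9% of all genes were. Of 5 tested ligands and processing enzymes 4 were called lower in PlaB than in DMSO, as were 4 of 6 receptors (1 was higher) and 7 of 9 Smads and transcription partners, with medians of -2.69, -1.21 and -2.07 against 0.22 over all genes tested. The receptors listed are those of activin and of TGF-beta. Acvr1b and Acvr2b (activin) and Tgfbr1 and Tgfbr2 (TGF-beta) were lower, and the 1 called higher was also of TGF-beta. Inhbb, an activin subunit, went from a mean of 264 CPM to 10.1 (log2 -4.70, SE 0.13, adjusted p = 1.2e-21). Acvr1b, the type I receptor ALK4, went from 125 to 7.74 (log2 -4.01, SE 0.13, adjusted p = 1.5e-20), and Smad3, the effector, from 38.4 to 4.28 (log2 -3.17, SE 0.18, adjusted p = 6.1e-15). Nodal was higher than in DMSO by 0.59 in the same libraries, as given above. In Dux KD PlaB against PlaB the same lists had 4 of 5, 4 of 6 and 6 of 9 genes called higher and none lower, with medians of 3.23, 1.22 and 1.47 against -0.14 over all genes, and in SE KO PlaB 3 of 5, 3 of 6 and 6 of 9, with medians of 3.65, 1.37 and 1.32 against -0.07. Of all genes 54.9% and 52.0% were called in these comparisons, in either direction. Inhbb was then at 117 and 195 CPM in the mean, Acvr1b at 85.8 and 68.8, and Smad3 at 25.7 and 17.2. These comparisons share the PlaB libraries, so low values in PlaB enter each of them.

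Under RA, where 31.0% of all genes were called, genes of the same lists were called in both directions. Of the ligands and processing enzymes 1 was called higher and 2 lower, with Gdf3, a ligand that also uses Tdgf1, at a mean of 16.6 CPM against 53.3 in DMSO (log2 -1.68, SE 0.12, adjusted p = 2.6e-12). Of the receptors 2 of 6 were higher, both of TGF-beta, and no activin receptor was called. Tgfbr2, among the 2, was at 9.42 against 2.02 CPM (log2 2.22, SE 0.29, adjusted p = 1.8e-07). Of the Smads and partners 1 was higher and 1 lower. Medians were -0.84, 0.21 and -0.16, beside 0.10 over all genes. In the other 9 comparisons at most 2 genes of each of these 3 lists were called.

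Among 7 genes that respond to Smad2 and Smad3 or feed back on them, Ltbp1 was called in 8 of 13 comparisons. Ltbp1, which binds latent TGF-beta, was at a mean of 18.1 CPM in DMSO and 10.6 in Zscan4 OE against 4.74 in ESC (log2 1.93 and 1.16, adjusted p = 7.9e-10 and 8.5e-06). Both comparisons use the ESC libraries, and in both Lefty1 and Lefty2 were called higher as well. In the libraries labelled Dux KD Zscan4 OE, Ltbp1 was at 5.22 CPM (log2 -1.01 against Zscan4 OE, adjusted p = 7.4e-05). In SE KO PlaB it was higher than in PlaB (log2 1.14, adjusted p = 7.3e-05), where both Lefty genes were lower. Of the whole list 3 of 7 were lower in PlaB than in DMSO and none higher, and 2 were higher in RA and none lower. Of all genes 58.9% were called in PlaB and 31.0% in RA, so neither share was above that of all genes. Smad7, the inhibitory Smad, was at 29.7 CPM in PlaB against 170.5 in DMSO (log2 -2.52, SE 0.13, adjusted p = 1.1e-15), at 119.7 in Dux KD PlaB and at 184 in SE KO PlaB.

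Further genes of the primitive streak, mesoderm and definitive endoderm were called in both directions. Of 13 tested, 5 were higher and 2 lower in RA, 7 higher and 3 lower in PlaB, 4 higher and 5 lower in Dux KD PlaB and 4 higher and 1 lower in SE KO PlaB, beside 31.0%, 58.9%, 54.9% and 52.0% of all genes called. Foxa2, an endoderm transcription factor, had no count in DMSO and was at a mean of 16.0 CPM in RA (adjusted p = 4.8e-12) and 0.810 CPM in SE KO RA (log2 -4.28 against RA, SE 0.35, adjusted p = 9.8e-10). Otx2, which acts in anterior endoderm and epiblast, was at 25.0 CPM in PlaB against 8.04 in DMSO (log2 1.63, SE 0.16, adjusted p = 3.3e-10) and at 2.02 in RA (log2 -1.99, SE 0.21, adjusted p = 3.7e-09). Kdr, a receptor of mesodermal progenitors, was at 5.07 CPM in ESC and 0.580 in DMSO (log2 -3.11, SE 0.39, adjusted p = 2.8e-07). Pdgfra, which marks primitive endoderm and mesoderm, was at 9.69 CPM in RA and 13.6 in PlaB against 1.03 in DMSO (log2 3.22 and 3.72, adjusted p = 7.7e-13 and 4.2e-15).

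Genes of FGF signalling were lower in RA. All 10 tested FGF ligands and targets were called lower in RA than in DMSO, with a median of -2.28, among them Fgf4, the main FGF of ESCs, at a mean of 41.1 against 316 CPM (log2 -2.94, SE 0.11, adjusted p = 3.3e-18) and Fgf15 at 1.10 against 37.4 (log2 -5.09, SE 0.25, adjusted p = 1.8e-15), while Fgf8 itself differed by -0.46 (adjusted p = 0.629). In PlaB 7 of 10 were lower and 1 higher, in Dux KD PlaB 7 were higher and 1 lower against PlaB, and in SE KO PlaB 5 were higher and 2 lower. Of all genes 31.0% were called in RA (median 0.10), 58.9% in PlaB, 54.9% in Dux KD PlaB and 52.0% in SE KO PlaB. Of 9 Wnt targets 1 was higher and 2 lower in RA, a share near that of all genes. In PlaB, the comparison with the highest Wnt3 level, 1 was higher and 6 lower. Notum, a Wnt inhibitor and target, was at 0.867 CPM in PlaB against 10.1 in DMSO (log2 -3.53, SE 0.20, adjusted p = 6.3e-15), and Axin2 at 7.31 against 15.6 (log2 -1.09, SE 0.15, adjusted p = 1.4e-07). In Dux KD PlaB, where Wnt3 was low, 5 Wnt targets were higher than in PlaB and 1 lower. That share is not far from that of all genes.

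**Figure D5:**
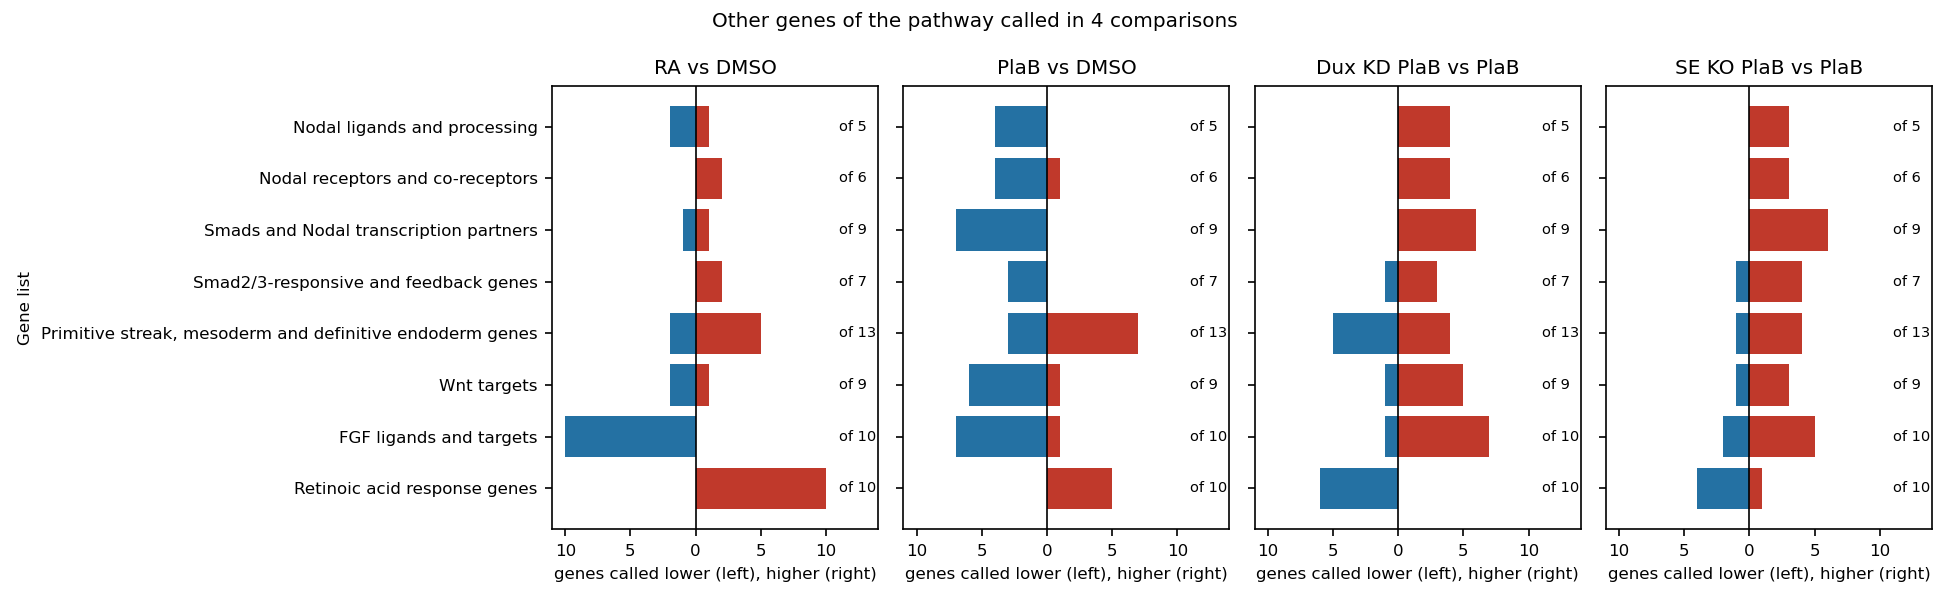
Numbers of genes called lower (blue, left) and higher (red, right) in 8 lists of pathway and lineage genes in 4 comparisons, with the number tested at the right of each row. Ligands, receptors (of activin and TGF-beta) and Smads are called mainly lower in PlaB and higher in the Dux KD PlaB and SE KO PlaB comparisons. All 10 FGF genes are lower in RA. Of all genes 31.0% were called in RA, 58.9% in PlaB, 54.9% in Dux KD PlaB and 52.0% in SE KO PlaB.

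Lists of genes that mark the inductions were read as a check of the groups. All 10 retinoic acid response genes were called higher in RA than in DMSO, with Stra8 and Dhrs3 among them, and all 8 markers of 2-cell-like cells were higher in RA, PlaB, Zscan4 OE and Dux OE than in their controls, while in Dux R70A OE 0 of 8 were higher than in ESC and 6 were lower. Of 8 ESC markers 5 were lower in RA (among them Pou5f1, Sox2 and Esrrb) and 4 in PlaB, where 1 was higher. Of all genes 31.0% were called in RA, 58.9% in PlaB, 11.6% in Zscan4 OE and 9.51% in Dux OE. In Dux R70A OE against ESC it was 16.9%. The share of ESC markers called in PlaB is near that of all genes. The part of undifferentiated markers in the changes of the Nodal genes was not tested.

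The genes whose levels most resembled the members were then sought. By the correlation of group means of log2 CPM over 13 groups, among 12673 genes, Nodal was nearest to Traf3ip2 (r = 0.927), Trpa1 (0.904) and Zfp148 (0.881), and Lefty1 to Foxr1 (0.894), Rhobtb3 (0.868) and Slc43a1 (0.862). Lefty2 was nearest to Elavl4 (0.871), Map7d3 (0.865) and Slc25a15 (0.793). Tdgf1 was nearest to its own pseudogene Tdgf1-ps1 (0.979), then Platr15 (0.876) and Mtdh (0.843). The pseudogene shares 50.9% of its 50-base windows with Tdgf1 and held 4.78% to 7.16% as many counts, so its reads may come from Tdgf1. T was nearest to Hypk (0.867), Fbxo3 (0.861) and Ankrd37 (0.861) and Fgf8 to Fads6 (0.859), Carmil3 (0.857) and Nxph4 (0.854), at levels near the floor. Between members the closest pair was Lefty2 and Tdgf1 (r = 0.672, Spearman's rho 0.725), while Nodal and Lefty1 had r = -0.0404. The groups share inductions and lines, so these values describe the 13 groups and carry no p.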

How the data were processed

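Counts per gene (raw, whole-number) were deposited by the authors for 26 polyA-selected libraries (NEBNext Ultra II) on mm10. The submitters' processing notes name FastQC, Trimmomatic, STAR, featureCounts and DESeq2, and their settings, with strand and multimapping, are not given in the sources used here. All 10 genes had their GENCODE M21 span, with no overlapping exon of another gene. Counts were fitted in R 4.3.3 with edgeR 4.0.16 (TMM, filterByExpr, quasi-likelihood F-test, 1 model over 13 groups), and p-values were adjusted by Benjamini-Hochberg over 20953 genes, since the sources state no RNA-seq test. CPM used TMM-scaled totals. SE is the absolute log2 change divided by the square root of F. Intervals and the floor of 3 counts cover counting error only. Replicates of a group differed by more than sampling noise (chi-square per df 1.55 to 30.2). On counts simulated for PlaB against DMSO (20953 genes, 200 changed by 2 on the log2 scale), edgeR recovered 100.0% with 4 false calls. The interaction test recovered 94.5% with 10 false calls. The changed genes were drawn above a mean level that leaves out scarce genes such as T, Gsc and Fgf8. They were also far fewer than the 58.9% of genes called in the data. The simulation therefore cannot show recovery of scarce genes or scaling under so broad a change. Alternatives were DESeq2 1.42.0, RLE factors, library size alone, no filter, the compared groups alone, a replicate block, no fold limit, the other control, and each library left out. The genes and lists were chosen with earlier results of these data known. Named are all 10 genes, from the lists mainly genes among the up to 4 called in most comparisons (Afp was named after its values were seen), and for 6 members the 3 genes most like them. The values of 1 listed gene are not reported here.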

Additional observations from a re-analysis of the deposited data

Results flagged for a closer look

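A direct test of the difference between the effect under PlaB and the effect under RA (edgeR, log2 scale, 2 libraries per group) passed both thresholds in 12 cases. Of all genes 52.2% passed for Dux KD and 49.0% for SE KO. For Dux KD the share of the tested members was near that of all genes. The same RA and PlaB libraries enter both contrasts. The knockdown left more Duxf3 counts under RA than under PlaB, as given above. For Dux KD the differences were 2.26 for Tdgf1 (adjusted p = 7.5e-11), -4.31 for Wnt3 (adjusted p = 4.3e-06), -2.45 for Mixl1 (adjusted p = 0.0158) and -2.56 for T (adjusted p = 0.042). That of Fgf8 was 6.69 (adjusted p = 0.00164), a fitted value that is no bound, since PlaB had no Fgf8 count. For SE KO they were 2.77 for Nodal (adjusted p = 5.6e-15), 1.51 for Tdgf1 (adjusted p = 1.4e-07), -1.51 for Lefty1 (adjusted p = 2.1e-07), -1.10 for Lefty2 (adjusted p = 2.6e-05), -2.85 for Wnt3 (adjusted p = 2.3e-04), -4.20 for T (adjusted p = 0.00184) and -1.76 for Mixl1 (adjusted p = 0.0498). Those of T, Mixl1 and Fgf8 for Dux KD and of T and Mixl1 for SE KO rest on few counts. T had 2 and 4 counts in SE KO PlaB and 1 and 6 in RA. For Dux KD, T lost its call without Dux KD PlaB replicate 1 (adjusted p = 0.0597) or 2 (0.102), Dux KD RA replicate 2 (0.145), PlaB replicate 1 (0.055) or 2 (0.0851), or RA replicate 1 (0.178), with DESeq2 (0.0532) and without the filter on low counts (0.0721). Mixl1 lost its Dux KD call without Dux KD PlaB replicate 1 (adjusted p = 0.112) or Dux KD RA replicate 2 (0.507). For SE KO, Mixl1 lost its call without PlaB replicate 2 (adjusted p = 0.127), RA replicate 1 (0.117) or 2 (0.0673), SE KO PlaB replicate 1 (0.179), or SE KO RA replicate 1 (0.137) or 2 (0.0557), without the filter (0.0526) and with the compared groups alone (0.0657), and Lefty2 was at -0.95 without PlaB replicate 2.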

How the results depend on the processing

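Of 54 called changes of members, all 54 kept direction and call with RLE factors and with the replicate block, 51 with DESeq2, 51 with library size alone and 50 without the filter. The replicate number pairs nothing (same-numbered deviations correlated at -0.0473 to 0.0237) and the block moved no count of members or of all genes by over 1.5 times. With the other control, Lefty2 turned to 0.71 in RA, 0.53 in PlaB and -0.28 in Zscan4 OE, and Tdgf1 to 0.42 in RA. Members called were then 2 for RA, 1 for Zscan4 OE and 4 for Dux OE. Without the fold limit they were 1 for Dux OE, 4 for Dux R70A OE against ESC and 5 for SE KO RA. For Dux R70A OE against ESC they were 3 with library size alone and 3 with the compared groups alone. With a library left out they ran from 1 to 4 for Dux R70A OE against Dux OE (1 without Dux OE replicate 1), 1 to 2 against ESC (2 without Dux R70A OE replicate 2 or ESC replicate 2), and 3 to 5 for the Dux KD difference (3 without Dux KD PlaB replicate 1 or Dux KD RA replicate 2). Of 264 changes refitted with a library left out 232 kept their call. Without the filter Nodal in DMSO was at -0.96, with library size -0.94. Genes called without the fold limit were 9141 for DMSO, 12347 RA, 8081 Zscan4 OE, 5769 Dux OE, 9363 Dux R70A OE against ESC, 8103 against Dux OE, 7811 Dux KD RA, 6839 Dux KD Zscan4 OE, 9643 SE KO RA and 5331 SE KO Dux OE. They were 1547 for Dux KD Zscan4 OE with the compared groups alone, 3811 for Dux OE and 1897 for Dux R70A OE against DMSO, and 803 for SE KO Dux OE without Dux OE replicate 2. Library size alone raised the share of calls that were higher from 66.5% to 76.8% for RA, 62.3% to 76.6% for Zscan4 OE, 60.4% to 77.6% for Dux R70A OE against ESC and 44.8% to 58.9% against Dux OE. The median of all genes then moved from 0.22 to 0.48 for PlaB and from -0.20 to -0.47 for the Dux KD difference. Apart from these settings the cause was not tested. Depth limits T, Mixl1, Gsc, Wnt3, Fgf8 and Cer1.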
